A study of Homo sapiens with 6 samples.

Results

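The aminoacyl-tRNA biosynthesis genes were taken as the rows of the deposited count table whose pathway annotation names exactly that KEGG pathway, which gave 44 of 20030 genes. They comprised 20 synthetase genes of the cytosol, 18 genes whose symbol ends in 2, and 6 genes that encode no synthetase. Of the 18, 17 encode mitochondrial synthetases, and TARSL2 (now TARS3) encodes a threonyl-tRNA synthetase of the cytosol in spite of its symbol. The expression of these genes was compared between the IGF2BP1-KD group and the IGF2BP1-NC group, each of 3 libraries and all made of total RNA from cells labelled NCI-H929 (H929), a multiple myeloma line. According to the study's methods, the knockdown (KD) was made with lentiviral shRNA under a U6 promoter followed by puromycin selection, and NC denotes the negative control. The sources do not state which of the shRNA sequences the KD libraries carry, whether the libraries of a group come from separate transductions, or what insert the control carries. P-values therefore measure the spread between these libraries, which may be technical. In such bulk RNA, fewer cells of a type and less RNA per cell cannot be told apart.

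Aminoacyl-tRNA synthetases attach each amino acid to its tRNA, the step at which the genetic code is read out, and every translating cell needs them. Human cells use separate sets of enzymes in the cytosol and in the mitochondrion. The mitochondrial enzymes are also encoded in the nucleus, usually by a second gene, whereas GARS and KARS serve both compartments. Several cytosolic synthetases are held together in the multisynthetase complex, and many cytosolic synthetase genes are known targets of ATF4, the transcription factor of the amino acid stress response. IGF2BP1 is an RNA-binding protein that recognises methylated mRNAs and is known to stabilise its targets.

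IGF2BP1 itself was at 43.7 to 49.1 FPKM in the NC libraries and at 12.8 to 13.5 FPKM in the KD libraries, a log2 fold change of -1.85 ± 0.0653 (SE). The library totals lay between 16885449 and 18112179 counts, and every member had at least 115 counts in every library. The plasma cell identity of the label was not seen in the RNA. Of 16 plasma cell markers, 3 exceeded 1 CPM in every library and 7 had at most 3 counts in every library, among them TNFRSF17, IRF4 and CD38, whereas all 12 erythroid markers exceeded 1 CPM in every library. The summed erythroid markers ranged from 8090 to 9700 CPM in NC and from 9070 to 9910 CPM in KD, and the summed plasma cell markers ranged from 78.2 to 164 CPM in NC and from 82.6 to 88.9 CPM in KD. Most of the plasma cell sum was XBP1, which alone ranged from 67.8 to 155.3 CPM over the libraries. XBP1 had 2689 counts in NC library 1, and 1365 and 1292 in NC libraries 2 and 3. The part of cell identity in the results below was not tested.

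NC library 1 stood apart from NC libraries 2 and 3 in many of the cytosolic synthetases. It was the highest of the 6 libraries in 13 of 20 cytosolic synthetases and in 12 of the 13 that are textbook ATF4 targets. By comparison, it was the highest in 4 of 17 mitochondrial synthetases and in 22.5% of all tested genes. The 13 ATF4 targets exceeded the mean of NC libraries 2 and 3 by a median of 1.28-fold in this library, against 0.9996-fold over all tested genes. WARS (1.83-fold), CARS (1.67-fold), GARS (1.63-fold) and AARS (1.56-fold) were raised most among them. In a list of 20 genes of the amino acid stress response, NC library 1 was the highest in 15, by a median of 2.52-fold over the list. The results are therefore given with and without this library, and its part in them beyond that was not tested.

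**Figure D1:**
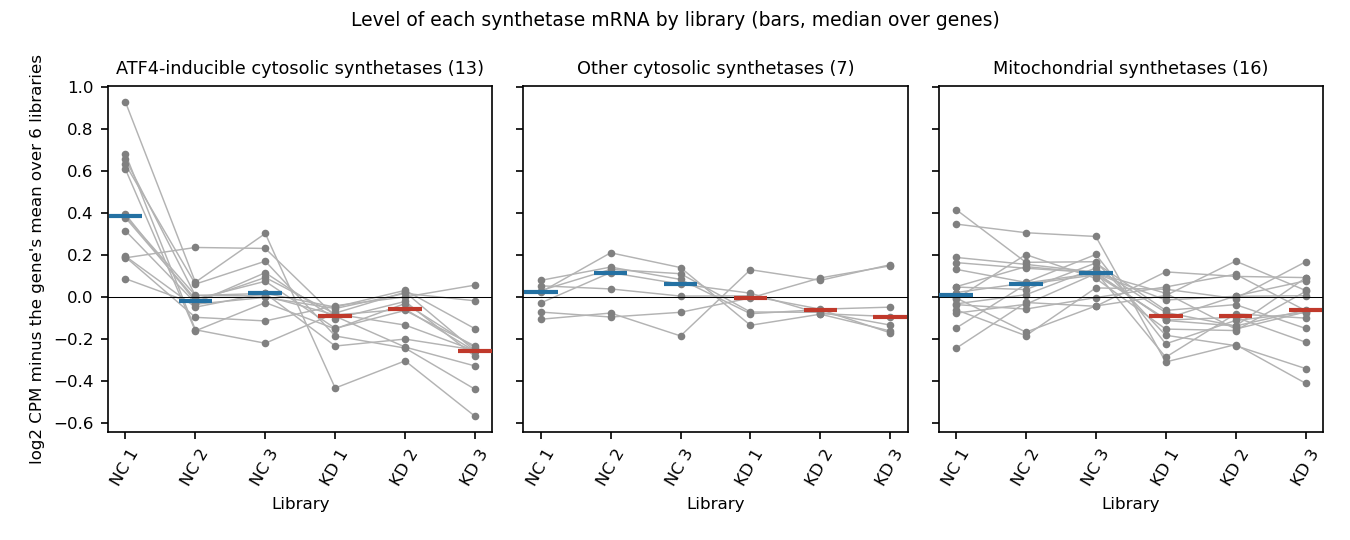
Each line is a gene, each point its log2 CPM in a library minus its mean over the 6 libraries, and each bar the median over the genes of the panel (blue NC, red KD). The right panel shows 16 mitochondrial synthetases. NC library 1 is the highest in 12 of the 13 ATF4-inducible cytosolic synthetases and in 4 of the mitochondrial synthetases.

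The promoter letters are shown for the members that hold the amino acid response element, the sequence through which ATF4 is known to act. RefSeq promoter windows (GRCh38.p14, 250 bases before to 50 bases after the gene start) matched 34 of the 44 members. AARS2, DARS, LARS, MTFMT, SEPSECS, TARSL2, VARS, VARS2 and YARS were among those without a match. The letters TGATGCAA, the core of that element, or TTGCATCA on the other strand, were found in 6 of the 34 (17.6%), namely AARS, CARS, IARS, MARS, NARS and TARS. All 6 are among the 16 cytosolic synthetases with a window, and none is among the 14 mitochondrial synthetases with one, compared with 0.866% of all 35116 windows and 0.729% of tested genes. A match is a description of the letters and not of a bound site. In the 40-base stretches below, written 5′ to 3′ along the gene's strand, the capitals mark the match.
AARS: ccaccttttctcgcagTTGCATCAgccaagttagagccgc
CARS: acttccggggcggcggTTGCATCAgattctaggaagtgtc
IARS: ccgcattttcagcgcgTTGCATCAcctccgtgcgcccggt
MARS: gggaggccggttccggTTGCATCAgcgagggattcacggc
NARS: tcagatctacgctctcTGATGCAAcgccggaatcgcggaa
TARS: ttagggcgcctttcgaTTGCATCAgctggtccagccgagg

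These stretches lie at chr16:70289670-70289709 (minus strand, AARS), chr11:3057402-3057441 (minus, CARS) and chr9:92293687-92293726 (minus, IARS). The others lie at chr12:57488048-57488087 (plus strand, MARS), chr18:57621799-57621838 (minus, NARS) and chr5:33440951-33440990 (plus, TARS). Counted from 0 at the start to which the window belongs, the match began at -187 in AARS and between -13 and 14 in the other 5 genes. For TARS that start is a second RefSeq start, downstream of the first base of the gene. NC library 1 was the highest library in all 6, from 1.16-fold (IARS) to 1.67-fold (CARS) above the mean of NC libraries 2 and 3. Among the cytosolic synthetases with a window but no match, it was also the highest in EPRS, GARS, SARS, WARS and FARSA. There it lay from 1.02-fold (FARSA) to 1.83-fold (WARS) above that mean. In FARSB, HARS, KARS, QARS and RARS, also without a match, another library was the highest. A link between the letters and NC library 1 was not tested. The cyclic AMP response element TGACGTCA, which is its own reverse complement, was in none of the 34 members, in 1.85% of all windows and in 3.9% of tested genes. The E-box CACGTG, also its own reverse complement, was in 4 of the 34 (CARS2, EARS2, IARS and MARS2), which is 11.8%. It was in 7.26% of all windows and in 12.9% of tested genes, so that it was no more frequent in the members than in tested genes. Neither of these overlaps the letters of the amino acid response element.

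Members of the pathway were more often lower than higher in the KD libraries. With edgeR's quasi-likelihood test and Benjamini-Hochberg adjustment over 11994 genes, 14 of the 44 were lower (31.8%) and 2 were higher (4.55%), whereas 14.5% of all tested genes were lower and 13.7% were higher. All changes were small. No member changed 2-fold, and the median log2 fold change was -0.17 over the 44 and -0.0048 over all tested genes. Without NC library 1, 15 members were lower and 2 higher, against 16.9% and 15.8% of all tested genes, and the 16 called before kept their call, with AARS added. The median over the members was then -0.14. In CPM, every KD library was below every NC library in 20 members and above every NC library in 5, so that 25 of 44 did not overlap, compared with 45.6% of all tested genes.

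The count of lower members depended on single libraries. It was 5 without KD library 1, 8 without KD library 2, 7 without KD library 3, 12 without NC library 2 and 8 without NC library 3. The call held in all 6 fits that left out a library for SARS2, TARS2, VARS, GATC and IARS2, which were lower, and for QARS, which was higher.

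**Figure D2:**
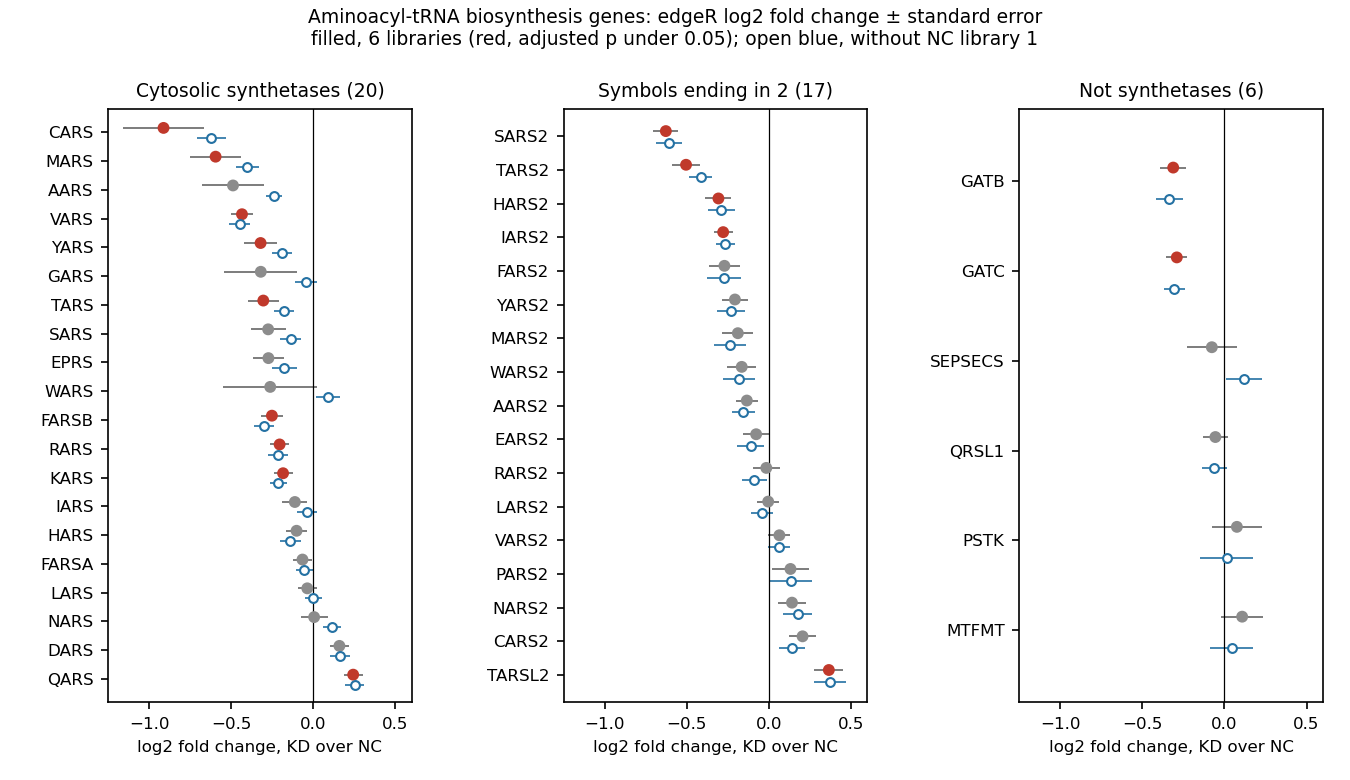
The horizontal axis gives the edgeR log2 fold change of KD over NC with its standard error, from all 6 libraries (filled points, red where the adjusted p was under 0.05) and without NC library 1 (open points), for the 20 cytosolic synthetases, 17 of the symbols ending in 2 and the 6 other members. Leaving out NC library 1 moves CARS from -0.91 to -0.62 and WARS from -0.26 to 0.089, SARS2 from -0.63 to -0.61 and VARS from -0.43 to -0.45.

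Among the 20 cytosolic synthetases, 8 were lower in KD (CARS, MARS, VARS, YARS, TARS, FARSB, RARS and KARS) and 1 was higher (QARS). These are 40.0% and 5.0%, beside 14.5% and 13.7% of all tested genes. TARSL2, also of the cytosol but counted by its symbol, is not among the 20 and was higher as well. The median log2 fold change of the 20 was -0.26, or -0.16 without NC library 1. Of the 13 ATF4 targets, 5 were lower (38.5%) and none higher by edgeR. Of these 13, 8 had an unadjusted p under 0.05, against 4897 of the 11994 tested genes. DESeq2 called 7 of the 13, against 3040 of the tested genes. Of the other 7 cytosolic synthetases, 3 were lower (42.9%) and 1 higher (14.3%).

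CARS (chr11:3000929-3057423, RefSeq GRCh38.p14), which charges the cysteine tRNA, had the largest change. It measured 46.1, 24.9 and 29.2 FPKM in NC libraries 1 to 3 and 17.7, 19.5 and 16.3 FPKM in KD libraries 1 to 3. The groups did not overlap, but NC library 1 lay far above the other NC libraries. The log2 fold change was -0.91 ± 0.245 (SE, adjusted p = 0.047 by edgeR), and -0.62 without NC library 1 (adjusted p = 0.00035). The call was lost in 4 of the 6 fits that left out a library, namely those without any one of the KD libraries or without NC library 3.

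MARS (chr12:57488068-57516652), the methionyl-tRNA synthetase that supplies both initiator and elongator tRNA, measured 180.5, 118.8 and 127.9 FPKM in NC and 101.2, 97.7 and 85.5 FPKM in KD. Again NC library 1 was the highest and the groups did not overlap. Its log2 fold change was -0.59 ± 0.158 (SE, adjusted p = 0.033 by edgeR), and -0.40 without NC library 1. The gene overlaps the protein-coding genes DDIT3 and ARHGAP9, and although the library kit was a stranded one, the strand setting of the counting is not given in the sources used here.

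YARS (chr1:32775239-32817358), the tyrosyl enzyme, measured 155.0, 113.6 and 122.8 FPKM in NC and 110.2, 106.7 and 98.3 FPKM in KD, a log2 fold change of -0.32 ± 0.101 (SE, adjusted p = 0.040 by edgeR). It overlaps S100PBP. TARS (chr5:33440696-33468091), the threonyl enzyme, measured 155.3, 116.0 and 122.9 FPKM in NC and 106.5, 113.5 and 101.2 FPKM in KD, a log2 fold change of -0.30 ± 0.0961 (SE, adjusted p = 0.039 by edgeR). In both, NC library 1 was the highest, and the fold changes without it were -0.19 and -0.18. MARS, YARS and TARS lost their call in the same 4 fits as CARS.

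VARS (chr6:31777518-31795752), the valyl-tRNA synthetase, showed no such spread. It measured 147.0, 148.6 and 147.9 FPKM in NC and 119.7, 108.6 and 102.3 FPKM in KD, so that the NC libraries were nearly equal and all KD libraries lower. Its log2 fold change was -0.43 ± 0.0683 (SE, adjusted p = 0.0011 by edgeR) and -0.45 without NC library 1. FARSB, a subunit of the phenylalanyl enzyme, RARS, the arginyl enzyme, and KARS, the lysyl enzyme, were lower by log2 fold changes of -0.25, -0.20 and -0.18. NC library 1 was not raised in these, at 0.8996-fold, 0.977-fold and 0.939-fold of the mean of NC libraries 2 and 3. Their calls were lost in 3 (FARSB) or 5 (RARS, KARS) of the 6 fits that left out a library.

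QARS (chr3:49095932-49104757), the glutaminyl-tRNA synthetase, went the other way. It measured 91.9, 91.6 and 84.8 FPKM in NC and 106.9, 103.6 and 109.4 FPKM in KD, and every KD library was above every NC library. Its log2 fold change was 0.24 ± 0.0583 (SE, adjusted p = 0.010 by edgeR).

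The other 11 cytosolic synthetases did not pass the test. AARS (185.9, 115.7 and 116.3 FPKM in NC and 99.1, 101.8 and 98.4 FPKM in KD) had a log2 fold change of -0.49 ± 0.189 (SE, adjusted p = 0.11 by edgeR), and of -0.24 without NC library 1 (adjusted p = 0.0035). GARS, SARS, EPRS and WARS had log2 fold changes between -0.32 and -0.26 with all libraries and between -0.18 and 0.089 without NC library 1. IARS, HARS, FARSA, LARS, NARS and DARS lay between -0.11 and 0.16. FARSA thus had a log2 fold change of -0.066 ± 0.0551 (SE), while FARSB, which forms the same enzyme, was lower.

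**Figure D3:**
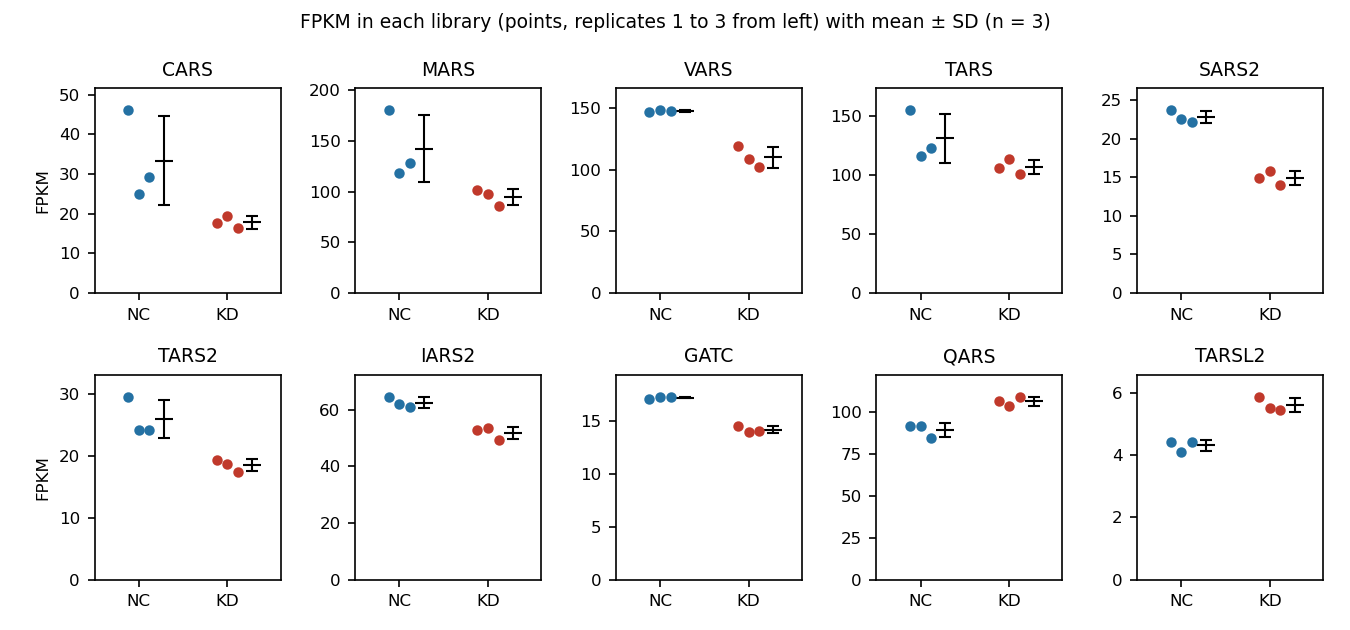
Points are the FPKM of a library (replicates 1 to 3 from left, NC blue and KD red), beside the mean ± SD of the 3 libraries, with axes from 0. CARS, MARS and TARS have 1 high NC library, VARS, SARS2, IARS2 and GATC have close NC libraries above all KD libraries, and QARS and TARSL2 are higher in all KD libraries.

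Of the 17 mitochondrial synthetases, 4 were lower in KD by edgeR (SARS2, TARS2, HARS2 and IARS2) and none was higher. The 4 are 23.5%, beside 14.5% of all tested genes lower. By edgeR 7 had an unadjusted p under 0.05, against 4897 of the 11994 tested genes. DESeq2 called 4 in all, against 3040 of the tested genes. NC library 1 was the highest library in the 4 lower genes, from 1.03-fold (IARS2) to 1.19-fold (TARS2) above the mean of NC libraries 2 and 3. The median log2 fold change of the 17 was -0.13, and -0.16 without NC library 1. The counts were then again 4 and 0, in a fit that called 16.9% of all tested genes lower.

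SARS2 (chr19:38915266-38930763), the mitochondrial seryl enzyme, measured 23.7, 22.5 and 22.2 FPKM in NC and 14.9, 15.8 and 13.95 FPKM in KD. The NC libraries were close to each other and clear of the KD libraries. The log2 fold change was -0.63 ± 0.0762 (SE, adjusted p = 0.00025 by edgeR), and -0.61 without NC library 1. TARS2 (chr1:150487419-150507602), the mitochondrial threonyl enzyme, measured 29.5, 24.2 and 24.2 FPKM in NC and 19.2, 18.7 and 17.4 FPKM in KD. Its log2 fold change was -0.50 ± 0.0847 (SE, adjusted p = 0.0016 by edgeR), and -0.42 without NC library 1.

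IARS2, the mitochondrial isoleucyl enzyme, had the highest level of the mitochondrial set, at 64.6, 61.9 and 61.0 FPKM in NC and 52.8, 53.5 and 49.4 FPKM in KD. Its groups did not overlap, with a log2 fold change of -0.28 ± 0.0581 (SE, adjusted p = 0.0053 by edgeR). HARS2 (chr5:140691455-140699305), the mitochondrial histidyl enzyme, measured 16.2, 15.5 and 15.1 FPKM in NC and 11.5, 13.4 and 13.2 FPKM in KD. Its log2 fold change was -0.31 ± 0.0791 (SE, adjusted p = 0.014 by edgeR), and the call was lost only without KD library 1. HARS2 lies head to head with HARS, and the RefSeq starts of the pair are separated by 84 bases (chr5:140691370-140691455, plus strand), with the first base of HARS and of HARS2 in capitals.
HARS and HARS2: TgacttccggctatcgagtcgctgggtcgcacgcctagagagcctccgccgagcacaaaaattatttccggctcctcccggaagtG

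HARS, transcribed from the other end of this stretch, measured 43.4, 46.9 and 45.0 FPKM in NC and 44.2, 41.5 and 41.3 FPKM in KD. The groups overlapped, and its log2 fold change was -0.10 ± 0.0657 (SE, adjusted p = 0.27 by edgeR).

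The remaining 13 mitochondrial synthetases had log2 fold changes between -0.27 (FARS2) and 0.21 (CARS2) that did not pass the test. In CPM, every KD library was below every NC library for FARS2, YARS2, WARS2 and AARS2, and above for CARS2 and NARS2. The groups likewise did not overlap in 45.6% of all tested genes. For AARS2 the nearest libraries were at 79.6 CPM in KD and 79.7 CPM in NC, and for NARS2 at 34.4 and 34.1 CPM. In FPKM the groups of NARS2 overlapped, at 13.2 in KD library 1 and 13.26 in NC library 1. TARSL2 (chr15:101653596-101724473), the second threonyl-tRNA synthetase of the cytosol, was higher in KD. It measured 4.42, 4.11 and 4.42 FPKM in NC and 5.87, 5.50 and 5.43 FPKM in KD. Its log2 fold change was 0.37 ± 0.0883 (SE, adjusted p = 0.011 by edgeR), and the call was lost without KD library 1. The 3 threonyl genes thus did not move together, as TARS and TARS2 were lower.

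The 6 members that are no synthetases act on tRNA that has already been charged. GATB, GATC and QRSL1 form the mitochondrial amidotransferase that turns glutamate on the glutamine tRNA into glutamine, since no separate mitochondrial glutaminyl enzyme exists. GATB (chr4:151670504-151761007) measured 13.7, 13.9 and 14.2 FPKM in NC and 11.1, 11.5 and 11.3 FPKM in KD, a log2 fold change of -0.31 ± 0.0788 (SE, adjusted p = 0.013 by edgeR). The groups were well apart, although the call was lost without KD library 1. GATC (chr12:120446444-120463749) measured 17.1, 17.3 and 17.2 FPKM in NC and 14.6, 13.9 and 14.1 FPKM in KD, a log2 fold change of -0.29 ± 0.0634 (SE, adjusted p = 0.0066 by edgeR). GATC overlaps the protein-coding gene SRSF9. QRSL1, the catalytic subunit, had a log2 fold change of -0.055 ± 0.0744 (SE), and its groups overlapped. MTFMT, which formylates the mitochondrial initiator tRNA, was at 0.11 ± 0.126 (SE). The selenocysteine genes PSTK and SEPSECS were at 0.076 ± 0.151 and -0.077 ± 0.151 (SE), and none of these passed the test.

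The levels of the compartments differed far more than the groups. In NC, mean FPKM of the cytosolic synthetases ranged from 27.3 (FARSB) to 164.8 (GARS) with a median of 114.1, and that of the mitochondrial synthetases from 3.21 (FARS2) to 62.5 (IARS2) with a median of 13.6. Summed over the 20 cytosolic synthetases, the FPKM were 2415, 1896 and 1932 in NC libraries 1 to 3 and 1797, 1827 and 1698 in KD. Over the 17 mitochondrial synthetases they were 292.5, 286.7 and 292.2 in NC and 258.7, 266.2 and 258.1 in KD. Every KD library was below every NC library in both sums. The ratio of the sums was 8.26, 6.61 and 6.61 in NC and 6.95, 6.86 and 6.58 in KD, so that the groups overlapped and NC library 1 alone was high. Within the cytosolic set, the 13 ATF4 targets summed to 1890, 1363 and 1416 FPKM in NC and 1282, 1317 and 1189 FPKM in KD, and the other 7 to 524.6, 533.2 and 516.0 FPKM in NC and 515.5, 510.7 and 509.2 FPKM in KD.

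For 14 amino acids both a cytosolic and a mitochondrial enzyme were among the members, and the cytosolic FPKM was the higher in every library in all 14 pairs, from 1.51-fold to 23.0-fold. Both partners were lower in KD in 1 pair (TARS and TARS2), only the cytosolic one in 5 (CARS, MARS, RARS, VARS and YARS), only the mitochondrial one in 3 (HARS2, IARS2 and SARS2) and neither in 5. Without NC library 1, AARS passed as well, so that only the cytosolic partner was lower in 6 pairs, and the other counts were 1 and 3. The ratio of the partners did not overlap between the groups in 6 of the 14 pairs. In CPM, the groups of a single gene did not overlap for 45.6% of all tested genes. The share among ratios of other gene pairs was not computed. The mean ratio was 5.34 in NC and 2.41 in KD for CARS over CARS2, and 6.90 and 4.89 for VARS over VARS2. The log2 differences were -1.08 and -0.50, and -0.76 and -0.51 against NC libraries 2 and 3 alone. For SARS over SARS2 it was 7.07 in NC and 9.05 in KD, for TARS over TARS2 5.05 and 5.82, for HARS over HARS2 2.90 and 3.36, and for IARS over IARS2 1.95 and 2.18. With 3 libraries a group, the two-sided exact permutation test of a ratio can reach no less than p = 0.10, which these 6 pairs did, and the smallest value adjusted over the 14 pairs was 0.233.

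In the other pairs in which only the cytosolic call passed, the log2 fold changes were -0.59 and -0.19 for MARS and MARS2, -0.20 and -0.016 for RARS and RARS2, and -0.32 and -0.21 for YARS and YARS2. The ratios of these 3 pairs overlapped between the groups. The mean ratio of MARS over MARS2 was 16.7 in NC and 12.6 in KD, a log2 difference of -0.39, and of -0.16 against NC libraries 2 and 3 alone.

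**Figure D4:**
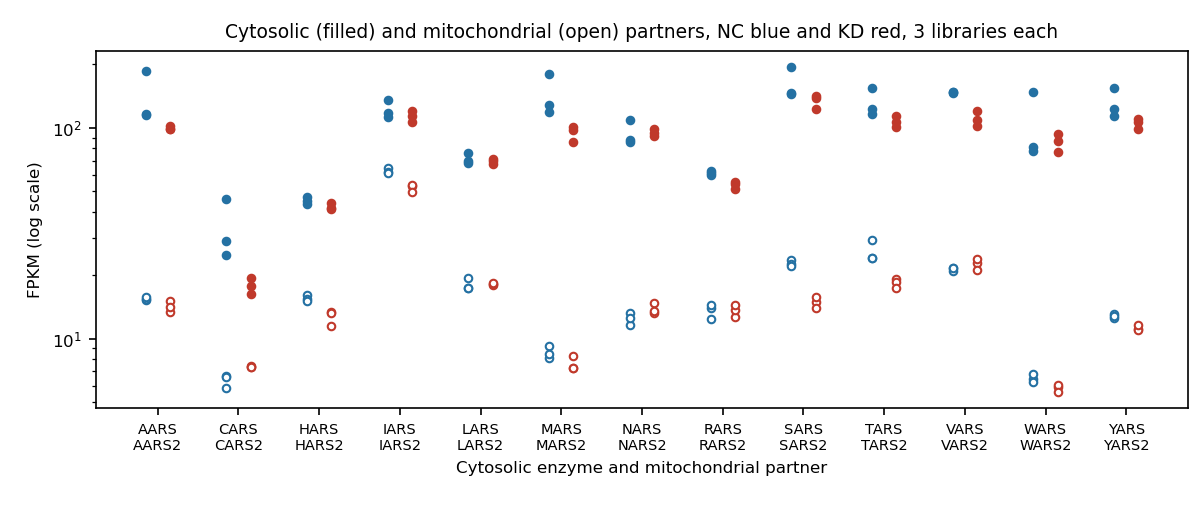
FPKM on a log axis, for 13 of the pairs, of each cytosolic enzyme (filled) and its mitochondrial partner (open) in the 3 NC (blue) and 3 KD (red) libraries. The cytosolic enzyme is the higher in all pairs drawn, and the ratio in KD is below all NC libraries for CARS and VARS and above them for SARS, TARS, HARS and IARS.

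The multisynthetase complex and genes that work beside the synthetases were read from the same fit. Of the 11 genes of the complex, all but AIMP1, AIMP2 and EEF1E1 are members already counted above. In the complex, 4 were lower (MARS, KARS, RARS and EEF1E1) and 2 higher (QARS and AIMP2), which is 36.4% and 18.2% beside 14.5% and 13.7% of all tested genes. Only EEF1E1 and AIMP2 among these calls are not calls of members. Without NC library 1 the counts were 3 lower and 2 higher. That fit called 16.9% of all tested genes lower and 15.8% higher. AIMP2, a scaffold of the complex, measured 25.9, 23.4 and 24.3 FPKM in NC and 29.5, 28.5 and 31.4 FPKM in KD, a log2 fold change of 0.27 ± 0.0689 (SE, adjusted p = 0.014 by edgeR). EEF1E1 had a log2 fold change of -0.18 ± 0.0595 (SE, adjusted p = 0.043 by edgeR), which was not called without NC library 1. These were also the 1 higher and 1 lower (12.5% each) of the 8 cytosolic partners outside the pathway, a list that holds the tRNA exporter XPOT and the EEF1 elongation factors. Without NC library 1, 2 of the 8 were higher (AIMP2 and XPOT) and 0 lower, beside 15.8% and 16.9% of all tested genes. Among the 6 mitochondrial translation factors, 1 was lower (16.7%, beside 14.5% of all tested genes). This was TUFM, the mitochondrial elongation factor that carries charged tRNA to the ribosome. It measured 195.5, 212.1 and 201.1 FPKM in NC and 156.3, 154.4 and 146.3 FPKM in KD, a log2 fold change of -0.42 ± 0.0626 (SE, adjusted p = 0.00077 by edgeR). Of 12 genes of tRNA maturation, 2 were higher (the ribonuclease P subunits POP1 and RPP40, log2 fold changes of 0.27 and 0.41) and 1 was lower (KIAA0391, now PRORP, the mitochondrial ribonuclease P nuclease, -0.29). Those are 16.7% and 8.33%. Without NC library 1, 2 of the 12 were higher and 3 lower, with ELAC2 and TSEN34 added, beside 15.8% and 16.9% of all tested genes. Of the 5 tested genes for editing and release of charged tRNA, 0 were called by edgeR or DESeq2. Of these 5, 1 had an unadjusted p under 0.05, against 4897 of all 11994 tested genes.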

How the data were processed

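RNA of 6 libraries from cells labelled NCI-H929 was sequenced, 3 IGF2BP1-NC and 3 IGF2BP1-KD, grouped by their labels. The authors trimmed reads (Trimmomatic), mapped them to GRCh38 (HISAT2) and deposited whole-number counts per gene from HTSeq. The deposited FPKM, which the authors describe as made with Cufflinks, equalled counts divided by gene length and library total. Among the FPKM rows, 27 gene symbols had turned into dates. The library kit was stranded. Tool versions, the strand setting of the counting and the annotation are not given in the sources used here. The counts were tested with edgeR 4.0.16 in R 4.3.3 (TMM, filterByExpr, robust glmQLFit, two-sided glmQLFTest, Benjamini-Hochberg over 11994 genes, called at an adjusted p under 0.05). CPM use the TMM factors, except those of the plasma cell and erythroid markers, which use the library totals alone. On simulated counts, edgeR called 98 of 100 genes changed 2-fold, 60 of 100 changed 1.41-fold, and 6 unchanged genes. Changes smaller than 1.41-fold, as in most members, were not simulated. The simulation gave all genes the same dispersion and held no library that stands apart as NC library 1 does, so that it does not show how the test behaves with such a library.

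DESeq2 1.42.0, limma 3.58.1 (voom, and log2(FPKM + 1) or log2(FPKM + 0.1)), other scalings and filters, a replicate block, a fold minimum of 1.5 and leaving out each library were alternatives. Members and lists were chosen with earlier results of these data known. Named in full were the 10 called members of largest change in each direction and the pairs whose calls differ, with up to 3 called genes of each list (multisynthetase complex, ATF4 targets, cytosolic partners, editing and release, mitochondrial translation factors, tRNA maturation, amino acid stress response). IARS2, AARS, HARS and the FARSA and FARSB comparison were added after their values were seen. A single member is counted but its own values are not reported here. Sequences are RefSeq's.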

Additional observations from a re-analysis of the deposited data

How the results depend on the processing

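With a fold change of at least 1.5 added to the call, 0 members were higher and 3 were lower (CARS, SARS2 and MARS). When 1 library was left out, the higher members numbered 1 to 2, the lower members 5 to 15, and the median log2 fold change of the 26 members not ending in 2, -0.23 with all libraries, ranged from -0.25 to -0.14, the last without NC library 1. With all libraries and TARSL2 counted among the members not ending in 2, that median was -0.20. Between 10 and 16 members were lower under the other tools, filters and scalings. Of 240 values of the 16 called members under 15 settings, 191 kept direction and call, 49 lost the call and 0 reversed. Beside the 16 called members, 9 values of other members passed under these settings, in AARS, DARS, EPRS, SARS and YARS2.

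Some members that were not called changed sign, lying between -0.077 (SEPSECS) and 0.076 (PSTK) with all libraries, except WARS at -0.26. When 1 library was left out, the log2 fold change ranged from -0.060 to 0.00037 for LARS, -0.041 to 0.056 for LARS2, -0.047 to 0.11 for NARS, -0.012 to 0.14 for PSTK, -0.088 to 0.036 for RARS2, -0.18 to 0.12 for SEPSECS and -0.42 to 0.089 for WARS. LARS2 was at 0.0085 with at least 10 counts in every library, 0.0091 and 0.0086 with 0.1 and 1 added to FPKM, 0.0076 by library size only and 0.027 with upper-quartile factors. NARS was at -0.0038 without a filter and RARS2 at 0.016 with upper-quartile factors. The causes were not tested.

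The replicate numbers did not pair the libraries, since deviations of same-numbered libraries correlated at -0.052, 0.036 and -0.11. With a replicate block, 13 members were lower and 2 higher.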

Other observations

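The amino acid stress response, a list of 20 genes that are mostly induced through ATF4, gave different calls with and without NC library 1. With all libraries 0 of the 20 passed edgeR's test, 2 had an unadjusted p under 0.05, and DESeq2 called 1. Of the 11994 tested genes, 4897 had an unadjusted p under 0.05 and 3040 were called by DESeq2. Without NC library 1, 5 of the 20 were higher and 3 lower in KD. That fit called 15.8% of all tested genes higher and 16.9% lower. CHAC1, which degrades glutathione, had 847, 43 and 71 counts in NC libraries 1 to 3 and 31, 34 and 29 counts in KD. ATF4 itself had 10731, 5552 and 6745 counts in NC and 4851, 4795 and 4560 counts in KD, with a log2 fold change of -0.37 without NC library 1 (adjusted p = 0.0017 by edgeR). PHGDH, the first enzyme of serine synthesis, had 1742, 556 and 667 counts in NC and 2129, 1974 and 1872 counts in KD, and a log2 fold change of 1.71 without NC library 1 (adjusted p = 4.7e-08 by edgeR). ATF5 had 2582, 1306 and 1389 counts in NC and 3781, 3460 and 3348 counts in KD, and a log2 fold change of 1.40 without NC library 1. CHAC1, ATF4, PHGDH and ATF5 were chosen after their values were seen.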
